A study of Erigeron canadensis with 32 samples.

Results

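The comparison was made between leaves of horseweed (*Erigeron canadensis*) sprayed with 2,4-D and leaves sprayed with dicamba, both taken 6 h after treatment (HAT), in 8 of the 32 RNA-seq libraries of the study. It held the 4 libraries of each herbicide at 6 HAT, without the water libraries, and asked which genes differed and what they are known to do. Of 54498 predicted genes, 14462 passed the filter on low counts and were tested, and 75 differed at an adjusted p of 0.05 or below. Of these, 60 were higher and 15 lower after 2,4-D.

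All plants were glyphosate-resistant rosettes grown in a greenhouse from seed of 1 collection, and each library came from a single leaf of its own plant. 2,4-D was given as the dimethylamine salt, dicamba as the diglycolamine salt and halauxifen-methyl as its ester, and the control plants received water. All sprays, water included, carried a non-ionic surfactant. The herbicides were applied at their own labelled field rates, which differ, so that the compound and the dose cannot be told apart in any value below. The other groups used here are 2,4-D, dicamba and water at 1 HAT and halauxifen-methyl and water at 6 HAT, each with 4 libraries.

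2,4-D, a phenoxyacetic acid, and dicamba, a benzoic acid, are synthetic auxins. They are perceived by the receptors of the plant's own auxin, which mark the AUX/IAA repressors for destruction and so release genes such as the AUX/IAA genes themselves, the GH3 genes, whose products join auxin to amino acids, and the SAUR growth genes. Foreign compounds are met by another system: cytochrome P450s and reductases modify them, glutathione S-transferases and glycosyltransferases attach glutathione or sugar to them, and ABC and MATE transporters carry the products into the vacuole or out of the cell. Gene names below are those of the best *Arabidopsis thaliana* match in the authors' annotation, and the roles given are those known from that species.

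Total counts per library ran from 16664735 to 19185658 after 2,4-D and from 14156290 to 19486929 after dicamba. Dicamba replicates 2 and 3 stood apart. The correlation of log2 values between either of them and any other library of the 8 was 0.893 to 0.941, against 0.961 to 0.978 among the other 6, and they lay at opposite ends of the first principal component, which held 32.1% of the variance. The 100 genes with the most counts took 32.4 to 37.2% of the counts after 2,4-D and 28.6 to 34.5% after dicamba. The leaf label was borne out by the mesophyll markers, of which 14 of 16 were detected. Their summed level was 67330 to 101700 CPM (counts scaled by the library total and its TMM factor) after 2,4-D and 36870 to 65640 CPM after dicamba, so that these sums did not overlap. No mesophyll marker passed edgeR's quasi-likelihood test singly, while 4 were higher at an unadjusted p under 0.05 and DESeq2 and the exact test each called 1, and the part of this gap in the results was not tested. In whole leaves, fewer cells of a type and less RNA per cell cannot be told apart. The summed guard cell markers were at 148 to 175 CPM after 2,4-D and 122 to 175 CPM after dicamba, those of the epidermis at 68.2 to 89.9 CPM and 75.4 to 88.4 CPM, those of the phloem at 7.70 to 12.9 CPM and 7.42 to 13.8 CPM, and those of the xylem at 6.79 to 13.5 CPM and 2.07 to 15.7 CPM, with overlap throughout. Both shoot meristem markers were at 0 in all 8 libraries and the root marker was at or below 0.114 CPM.

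The 75 genes that differed were 0.519% of those tested, with 0.415% higher and 0.104% lower after 2,4-D (edgeR's quasi-likelihood test, Benjamini-Hochberg adjustment). At an unadjusted p under 0.05 there were 507 genes (3.51%) higher and 703 (4.86%) lower, against 723.1 expected from the threshold in both directions together. Of the 75, 67 differed by more than 2-fold and 23 by more than 4-fold. The median log2 fold change was 1.57 over the higher genes and -1.48 over the lower ones, beside -0.04 over all genes tested. In each of the 75 genes every 2,4-D library lay above, or every one below, the 4 dicamba libraries, which held for 6.11% of all genes tested. An exact permutation test of any single gene can reach no lower than p = 0.0286 (two-sided, 35 splits), so the calls rest on the fit across all genes.

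How many genes were called depended on the libraries and the test. Without dicamba replicate 3 the count was 158, and without any 1 of the 4 libraries of 2,4-D or without dicamba replicate 4 it was 31 to 38. Without both dicamba replicates that stood apart it was 153, of which 70 were among the 75. All 75 kept their direction in each of these fits, and 27 of them, 25 higher and 2 lower, were called in all 8 fits that left out 1 library. DESeq2 called 262 genes, 140 higher and 122 lower, and edgeR's exact test called 185, with 104 higher and 81 lower. Both lists held all 75, but these tests used the same 8 libraries and called more genes. With all 32 libraries in 1 fit 31 of the 75 were called, and with a replicate block 61. The number of calls, the balance of higher and lower genes and the membership of the 75 thus depended on the fit.

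**Figure D1:**
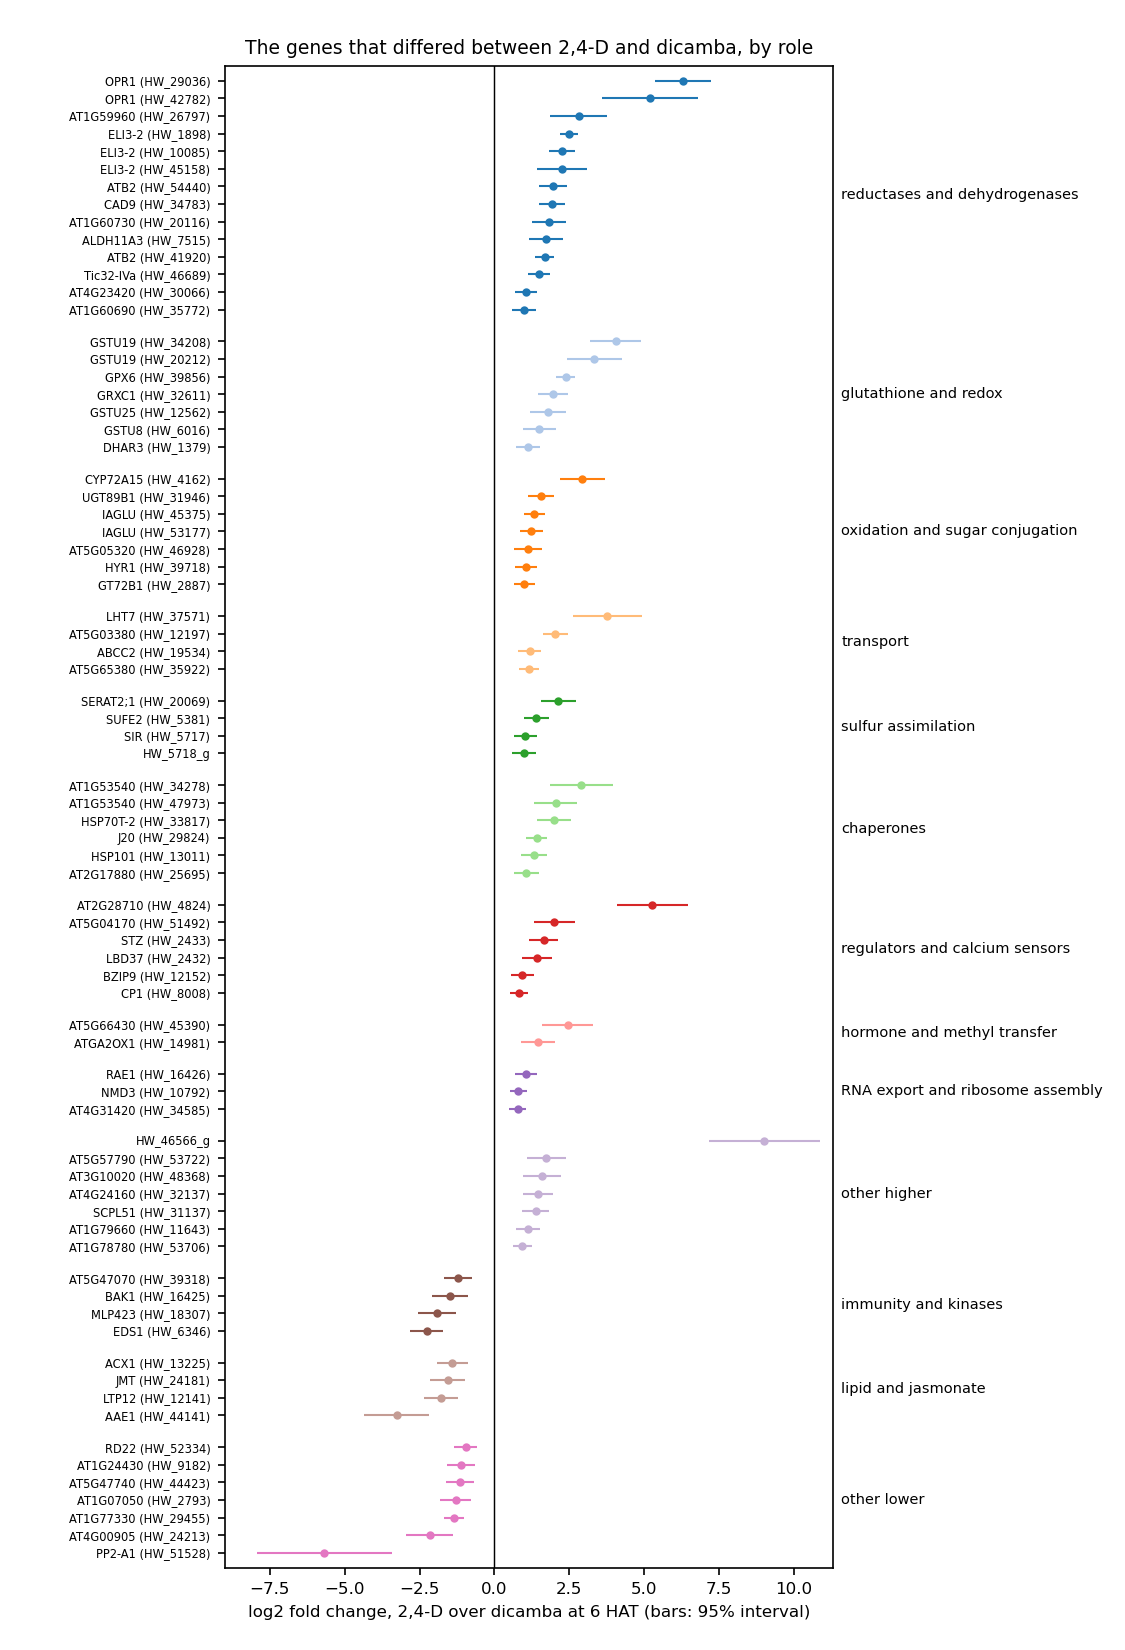
Log2 fold change of 2,4-D over dicamba at 6 HAT (horizontal axis) for each of the 75 genes that differed, with its 95% interval, grouped by role. Points right of 0 are the 60 genes higher after 2,4-D and points left of 0 the 15 lower ones, and the role groups were put together after the values had been seen.

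Of the 60 higher genes, 14 were grouped as reductases and dehydrogenases, which use NADPH, NADH or a flavin to reduce carbonyls and double bonds or to run the reverse reaction. Their median log2 fold change was 1.95. The role groups were formed among the called genes and within each direction, so their sizes have no count over all genes tested to be read against. Among them were 2 of the 4 tested genes matching OPR1, a flavin-dependent reductase of the old yellow enzyme family that is distinct from OPR3, the member needed to make jasmonate. OPR1 (HW_29036_g), with 5 exons at bases 1876 to 4154 of its contig and a coding length of 1086 bases, was at 238, 162, 194 and 160.4 CPM in the 2,4-D libraries, against 4.61, 1.775, 2.18 and 0.906 CPM in the dicamba libraries. Another gene, OPR1 (HW_42782_g), was at 104, 78.9, 74.9 and 69.6 CPM in the 2,4-D libraries, against 4.865, 0, 1.395 and 2.545 CPM in the dicamba libraries. Every 2,4-D library held more than 10 times the CPM of the highest dicamba library in both genes, and the dicamba libraries held few reads of either. The log2 fold changes were 6.30 ± 0.43 (SE; adjusted p = 6.4e-05, edgeR) and 5.203 ± 0.73 (adjusted p = 0.01, edgeR). A further gene matching OPR1, HW_41216_g, went the other way without passing the test, at 3.57 ± 0.671 CPM after 2,4-D and 13.8 ± 11.2 CPM after dicamba (SD, n = 4 each; interval of the log2 fold change -3.25 to -0.67, adjusted p = 0.31, edgeR). Neither of the 2 genes matching OPR3 passed the test, and the more abundant one averaged 84.7 ± 4.80 CPM after 2,4-D and 85.3 ± 3.99 CPM after dicamba (SD, n = 4 each).

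ELI3-2 is an elicitor-activated gene of the cinnamyl alcohol dehydrogenase family, whose members reduce phenolic aldehydes to alcohols. Of 13 genes matching it 6 were tested, 3 of them were called higher, and the other 3 were below 0, the lowest at -0.59 on the log2 scale. ELI3-2 (HW_1898_g) was the most abundant of the 75 genes after 2,4-D and also had the smallest p. It stood at 5894, 5784, 5565 and 5352 CPM in the 2,4-D libraries, against 982, 1032, 867 and 1047 CPM in the dicamba libraries. The groups were each tight, and the gap between them was 5.69-fold (log2 fold change 2.51 ± 0.14, adjusted p = 1.9e-05, edgeR). ELI3-2 (HW_10085_g) was at 41.9, 36.85, 41.4 and 41.3 CPM in the 2,4-D libraries, against 7.65, 6.14, 8.32 and 11 CPM in the dicamba libraries. ELI3-2 (HW_45158_g) was at 23.6, 22.85, 24.9 and 16.95 CPM in the 2,4-D libraries, against 5.73, 1.59, 6.98 and 4.01 CPM in the dicamba libraries. These copies were far less abundant than the first but differed by nearly the same factor, with log2 fold changes of 2.27 ± 0.20 and 2.26 ± 0.38 (adjusted p = 0.00057 and 0.025, edgeR). Another gene of the family, CAD9 (HW_34783_g), was at 498, 423, 486 and 476 CPM in the 2,4-D libraries, against 109, 88.05, 173 and 118 CPM in the dicamba libraries, again with no overlap, and differed by 1.94 ± 0.20 on the log2 scale (adjusted p = 0.0011, edgeR). Of 3 tested genes matching CAD9 the called one alone was above 0, and their median was -0.01 on the log2 scale.

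The aldo-keto reductases, soluble NADPH-dependent enzymes that reduce aldehydes and ketones, gave 5 genes. ATB2 (HW_41920_g) was at 1297, 1137, 1256 and 1141 CPM in the 2,4-D libraries, against 424.5, 314, 345 and 410.4 CPM in the dicamba libraries. Its 2,4-D libraries lay close together and the log2 fold change was 1.68 ± 0.14 (adjusted p = 0.00054, edgeR). The second ATB2 gene, HW_54440_g, averaged 474.5 ± 49.6 CPM after 2,4-D and 121 ± 33.3 CPM after dicamba (SD, n = 4 each; adjusted p = 0.0018, edgeR). AT1G60730 differed by 1.82 ± 0.26 on the log2 scale, AT1G60690 by 0.99 ± 0.18 and AT1G59960 by 2.82 ± 0.43. AT1G59960 was at 31.8, 25.5, 25.02 and 25.3 CPM in the 2,4-D libraries, against 1.72, 2.503, 8.204 and 2.72 CPM in the dicamba libraries, with dicamba replicate 3 the highest of its group and still below every 2,4-D library (adjusted p = 0.014, edgeR). The remaining reductases and dehydrogenases were ALDH11A3, a glyceraldehyde-3-phosphate dehydrogenase of the aldehyde dehydrogenase family, at 1.73, and the short-chain dehydrogenases Tic32-IVa at 1.495 and AT4G23420 at 1.05, all on the log2 scale. The other tested gene matching Tic32-IVa was at -2.94 on that scale and was not called.

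Glutathione and redox genes came to 7, with a median log2 fold change of 1.96. Glutathione S-transferases join glutathione to reactive compounds, and of the 18 that were tested edgeR called 4 higher after 2,4-D and none lower, and DESeq2 called 4 higher and 1 lower. The median of the 18 was 0.14, beside -0.04 over all genes tested. GSTU19 (HW_34208_g) was at 73.5, 71.2, 81.3 and 57.95 CPM in the 2,4-D libraries, against 5.07, 7.28, 2.51 and 1.94 CPM in the dicamba libraries. GSTU19 (HW_20212_g) was at 222.5, 197, 209 and 167 CPM in the 2,4-D libraries, against 19.5, 31.85, 5.41 and 20.5 CPM in the dicamba libraries. In both GSTU19 copies the lowest 2,4-D library held more than 5 times the CPM of the highest dicamba library, and the log2 fold changes were 4.05 ± 0.38 and 3.34 ± 0.42 (adjusted p = 0.00069 and 0.0044, edgeR). Another gene with the same best match, HW_37798_g, averaged 210.3 ± 25.04 CPM after 2,4-D and 265 ± 78.1 CPM after dicamba and did not pass the test, with a 95% interval of the log2 fold change from -0.80 to 0.09.

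GSTU25 (HW_12562_g) was at 309, 320.0, 298 and 328 CPM in the 2,4-D libraries, against 65.3, 151, 60.5 and 81.6 CPM in the dicamba libraries. Dicamba replicate 2 was the highest of its group, and still lay below every 2,4-D library (log2 fold change 1.79 ± 0.27, adjusted p = 0.014, edgeR). GSTU8 (HW_6016_g) was at 604, 526, 520.5 and 437 CPM in the 2,4-D libraries, against 262, 167, 101 and 197.5 CPM in the dicamba libraries. It differed by 1.503 ± 0.25 on the log2 scale (adjusted p = 0.023, edgeR), and water leaves, at 316 CPM on average, lay between the herbicides. GPX6 (HW_39856_g), a peroxidase that reduces lipid hydroperoxides with thiols, was at 833, 906, 913 and 916 CPM in the 2,4-D libraries, against 147, 200.5, 171 and 158 CPM in the dicamba libraries. Its 2,4-D libraries spanned only 833 to 916 CPM, and the log2 fold change was 2.38 ± 0.15 (adjusted p = 3.7e-05, edgeR). GRXC1, a glutaredoxin, averaged 2549 ± 228 CPM after 2,4-D and 649 ± 190.3 CPM after dicamba (adjusted p = 0.0025, edgeR), and DHAR3, which regenerates ascorbate with glutathione, averaged 295 ± 26.02 CPM after 2,4-D and 135 ± 34.6 CPM after dicamba (adjusted p = 0.019, edgeR; SD, n = 4 each).

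Genes for oxidation and sugar conjugation came to 7. CYP72A15 (HW_4162_g), a cytochrome P450, was at 20.5, 30.02, 20.4 and 23.25 CPM in the 2,4-D libraries, against 3.902, 1.59, 2.29 and 4.4 CPM in the dicamba libraries. It was the only one of 123 tested P450 genes to pass the test, at a log2 fold change of 2.94 ± 0.34 (adjusted p = 0.0025, edgeR), and the median of the P450 list was -0.25. DESeq2 called 1 P450 gene higher and 2 lower. Of 97 tested genes annotated in words as UDP-glycosyltransferases 3 were higher after 2,4-D, none was lower, and the median was -0.01. DESeq2 called 9 of this list higher and 1 lower, and without dicamba replicates 2 and 3 edgeR called 10 higher. UGT89B1 (HW_31946_g) was at 136, 172, 152 and 145 CPM in the 2,4-D libraries, against 33.85, 53.97, 63.7 and 53.1 CPM in the dicamba libraries. HYR1 (HW_39718_g) was at 36.97, 36.98, 37.3 and 31.01 CPM in the 2,4-D libraries, against 17.9, 18.2, 16.9 and 14.45 CPM in the dicamba libraries. GT72B1 (HW_2887_g), whose *A. thaliana* counterpart joins glucose to phenols, foreign chlorinated ones among them, was at 436, 532, 515 and 468 CPM in the 2,4-D libraries, against 227, 252, 199 and 281 CPM in the dicamba libraries. No 2,4-D library of these 3 genes fell within the dicamba range, and the log2 fold changes were 1.55 ± 0.20, 1.06 ± 0.16 and 1.01 ± 0.15 (adjusted p = 0.0046, 0.014 and 0.014, edgeR).

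Another 2 called glycosyltransferase genes matched IAGLU, named for the transfer of glucose to indole-3-acetic acid, the plant's own auxin. Their annotation is worded otherwise, so they are not in the list of UDP-glycosyltransferases above. Of 12 tested genes with that match 6 were above 0, with a median of 0.29 and a lowest value of -1.80 on the log2 scale, and none was called lower. IAGLU (HW_45375_g) averaged 119.7 ± 21.1 CPM after 2,4-D and 46.9 ± 3.505 CPM after dicamba, and IAGLU (HW_53177_g) averaged 65.2 ± 8.47 CPM after 2,4-D and 27.6 ± 4.63 CPM after dicamba (SD, n = 4 each; adjusted p = 0.004 and 0.011, edgeR). AT5G05320, an FAD-dependent oxidoreductase, averaged 673 ± 25.9 CPM after 2,4-D and 305 ± 109.9 CPM after dicamba (adjusted p = 0.049, edgeR), and was the called gene nearest to the threshold. Its 95% interval was 0.66 to 1.60 on the log2 scale.

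Transport gave 4 genes. LHT7 (HW_37571_g), of a family of amino acid transporters, was at 86.1, 81.55, 65.2 and 82.9 CPM in the 2,4-D libraries, against 3.29, 1.09, 10.9 and 7.68 CPM in the dicamba libraries. Every 2,4-D library held more than 5 times the CPM of the highest dicamba library, replicate 3, and the log2 fold change was 3.78 ± 0.53 (adjusted p = 0.0096, edgeR). AT5G03380 (HW_12197_g), with a heavy-metal binding domain, was at 219, 262, 222.5 and 232.5 CPM in the 2,4-D libraries, against 38.4, 61.9, 59.4 and 66.2 CPM in the dicamba libraries (log2 fold change 2.04 ± 0.19, adjusted p = 0.00069, edgeR). Among 97 tested ABC and MATE transporters 2 were higher after 2,4-D, none was lower, and the median was -0.15. DESeq2 called 6 of them higher and 1 lower. ABCC2 (HW_19534_g), whose counterpart moves glutathione conjugates into the vacuole, was at 224, 259.6, 212.5 and 209 CPM in the 2,4-D libraries, against 83.9, 89.01, 130.4 and 93 CPM in the dicamba libraries. AT5G65380 (HW_35922_g), a MATE transporter, was at 3079, 2887, 2658 and 2971 CPM in the 2,4-D libraries, against 1468, 1235, 1058 and 1384 CPM in the dicamba libraries. Both groups were compact in these genes and did not overlap, at log2 fold changes of 1.18 ± 0.17 and 1.16 ± 0.15 (adjusted p = 0.011 and 0.0046, edgeR). The ABCC2 gene model has a coding length of 433 bases, which is short for a gene of this family.

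**Figure D2:**
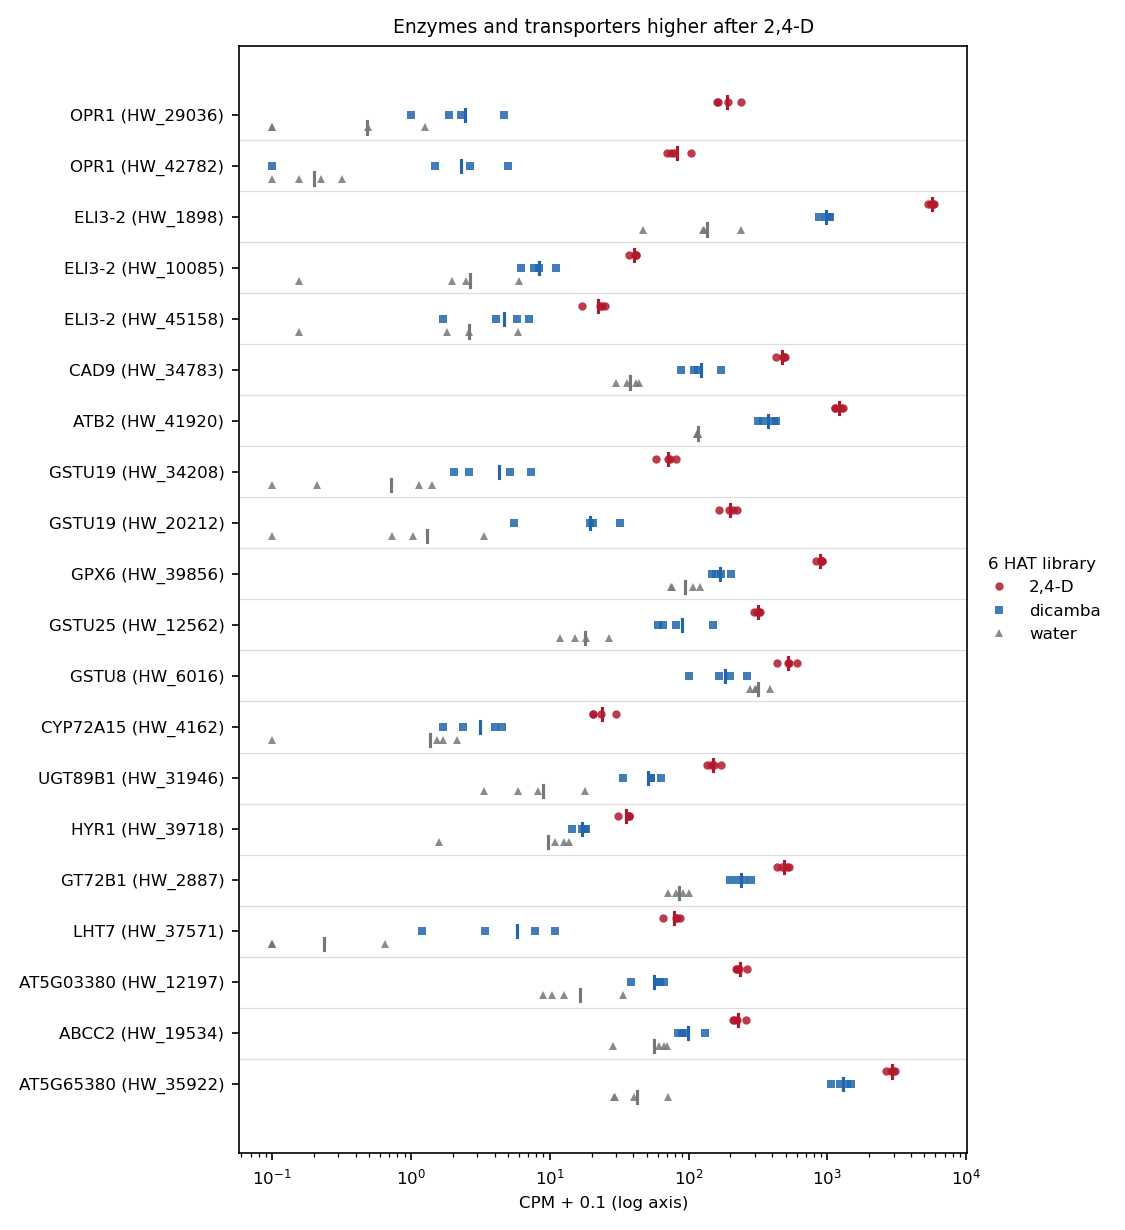
CPM + 0.1 in each library at 6 HAT (horizontal log axis) for 20 of the enzyme and transporter genes, with 2,4-D above dicamba and water in each row and a tick at the group mean. The 4 points of 2,4-D lie to the right of the 4 of dicamba in every row, by up to the 79.0-fold gap of OPR1 (HW_29036_g).

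Sulfur assimilation supplies the cysteine of glutathione, and 3 of the called higher genes belong to sulfur metabolism, with an unmatched neighbour of one of them grouped here by its position. SERAT2;1, the serine acetyltransferase that makes the carbon skeleton of cysteine, averaged 52.6 ± 4.35 CPM after 2,4-D and 11.8 ± 4.75 CPM after dicamba (SD, n = 4 each; log2 fold change 2.14 ± 0.27, adjusted p = 0.0044, edgeR). SIR, the sulfite reductase, averaged 94.1 ± 15.6 CPM after 2,4-D and 45.5 ± 8.21 CPM after dicamba, and SUFE2, which passes sulfur to iron-sulfur cluster assembly, averaged 41.7 ± 6.75 CPM after 2,4-D and 15.6 ± 2.304 CPM after dicamba. Of 3 tested genes matching SERAT2;1 the called one alone was above 0, and their median was -0.05 on the log2 scale. The log2 fold changes of SIR and SUFE2 were 1.03 ± 0.18 and 1.40 ± 0.19 (adjusted p = 0.025 and 0.0074, edgeR). HW_5718_g has no *A. thaliana* match, lies 87 bases from SIR on the same strand and averaged 405 ± 39.7 CPM after 2,4-D and 201.5 ± 46.5 CPM after dicamba (adjusted p = 0.047, edgeR). Whether these 2 gene models belong to 1 gene was not tested.

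Chaperones gave 6 genes. AT1G53540 (HW_34278_g), a small heat shock protein, was at 33.5, 7.56, 12.35 and 13.9 CPM in the 2,4-D libraries, against 1.72, 3.595, 1.84 and 1.596 CPM in the dicamba libraries. AT1G53540 (HW_47973_g) was at 61.1, 26.95, 26.5 and 33.6 CPM in the 2,4-D libraries, against 8.565, 12.9, 5.525 and 8.02 CPM in the dicamba libraries. In both genes 2,4-D replicate 1 was the highest library, and the log2 fold changes were 2.90 ± 0.48 and 2.05 ± 0.33 (adjusted p = 0.022 and 0.018, edgeR). For HW_47973_g water leaves, at 21.05 CPM on average, lay between the herbicides. HSP101 (HW_13011_g), which pulls apart protein aggregates, was at 80.5, 43.5, 53.7 and 72.8 CPM in the 2,4-D libraries, against 25.5, 23.4, 22.2 and 26.9 CPM in the dicamba libraries (log2 fold change 1.33 ± 0.20, adjusted p = 0.013, edgeR). A list of 107 tested genes drawn by the words heat shock, HSP20 and chaperone held these 3 calls of edgeR and none lower, with a median of 0.08, and leaves out the other 3 genes of this paragraph because their annotation is worded otherwise. DESeq2 called 10 of that list higher and none lower. J20 (HW_29824_g), a J-domain co-chaperone, was at 101, 91.01, 82.3 and 95.75 CPM in the 2,4-D libraries, against 37.55, 29.3, 40.9 and 29.9 CPM in the dicamba libraries (log2 fold change 1.41 ± 0.16, adjusted p = 0.0018, edgeR). HSP70T-2 differed by 1.99 ± 0.26 and the J-domain gene AT2G17880 by 1.06 ± 0.19 on the log2 scale.

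Among 6 genes for regulators and calcium sensors the zinc finger gene AT2G28710 (HW_4824_g) stood out, at 25.4, 22.3, 16.9 and 29.03 CPM in the 2,4-D libraries, against 0.405, 0.09101, 1.17 and 0.733 CPM in the dicamba libraries. It was near the limit of detection after dicamba and clearly present in every 2,4-D library (log2 fold change 5.28 ± 0.54, adjusted p = 0.0011, edgeR). STZ, a zinc finger repressor of the stress response, averaged 53.45 CPM after 2,4-D and 16.9 CPM after dicamba, and LBD37, a repressor active in nitrogen responses and lying 9187 bases from STZ on the same contig, averaged 67.9 CPM after 2,4-D and 24.95 CPM after dicamba. The other tested gene matching STZ was at -1.09 on the log2 scale and was not called. BZIP9 differed by 0.94 ± 0.18, the calcium-binding gene CP1 by 0.83 ± 0.13 and the EF-hand gene AT5G04170 by 2.01 ± 0.32 on the log2 scale. No gene of the WRKY (26 tested), NAC (30), AP2/ERF (38) or MYB (54) families passed the test of edgeR. At an unadjusted p under 0.05 these families held 11 higher and 19 lower genes in all, and DESeq2 called 3 higher and 5 lower.

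The other higher genes were fewer and more varied. ATGA2OX1, which inactivates gibberellins, averaged 55.7 CPM after 2,4-D and 19.9 CPM after dicamba, and the methyltransferase gene AT5G66430 averaged 27.5 CPM after 2,4-D and 4.99 CPM after dicamba. NMD3 and AT4G31420, of the large ribosomal subunit's maturation and export, and RAE1, of mRNA export, differed by 0.80 ± 0.13, 0.77 ± 0.13 and 1.06 ± 0.16 on the log2 scale. AT1G78780 (HW_53706_g), listed as pathogenesis-related, was at 148, 174, 165 and 160.5 CPM in the 2,4-D libraries, against 87.8, 92.97, 75.01 and 78.55 CPM in the dicamba libraries (log2 fold change 0.94 ± 0.14, adjusted p = 0.013, edgeR). It was the only one of 136 tested genes of the pathogen defence list that edgeR's quasi-likelihood test called, while DESeq2 and the exact test each called 1 higher and 1 lower. That list was drawn by words of the annotation and leaves out EDS1, an immunity gene called lower after 2,4-D. The median of that list was -0.31, with 2 genes higher and 13 lower at an unadjusted p under 0.05. Without dicamba replicates 2 and 3 edgeR called 1 of the list higher and none lower. SCPL51, AT4G24160, AT5G57790, AT3G10020 and AT1G79660 differed by 1.38, 1.46, 1.73, 1.59 and 1.13 on the log2 scale. HW_46566_g has no match and a single exon, and its counts summed to 741 after 2,4-D and 1 after dicamba. The ratio corrected for depth was 792, with a 95% counting interval of 142 to 31310, and the values were 13.1, 9.503, 12.7 and 3.26 CPM in the 2,4-D libraries, against 0.0507, 0, 0 and 0 CPM in the dicamba libraries. It was at 0 in all 4 water libraries.

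The 15 genes lower after 2,4-D were of low to moderate abundance: 14 averaged under 50 CPM after 2,4-D. Of the 15, 4 were immunity genes, kinases or an MLP-like protein. EDS1 (HW_6346_g), a lipase-like protein required for resistance signalling by one class of immune receptors, was at 8.82, 11.27, 8.304 and 13.3 CPM in the 2,4-D libraries, against 38.7, 43.8, 73.45 and 42.3 CPM in the dicamba libraries. The highest dicamba library was replicate 3, and the other 3 lay at 38.7 to 43.8 CPM, still above every 2,4-D library (log2 fold change -2.26 ± 0.25, adjusted p = 0.0018, edgeR). BAK1 (HW_16425_g), the co-receptor kinase of brassinosteroid and immune receptors, was at 12.6, 14.25, 12.7 and 18.6 CPM in the 2,4-D libraries, against 22.9, 51.4, 51.7 and 34.1 CPM in the dicamba libraries (log2 fold change -1.48 ± 0.27, adjusted p = 0.04, edgeR). It was the only one of 248 tested receptor-like kinases that edgeR's quasi-likelihood test called, while DESeq2 called 1 higher and 3 lower and the exact test 3 lower. The median of that list was -0.12, with 2 genes higher and 27 lower at an unadjusted p under 0.05. BAK1 missed the threshold without dicamba replicates 2 and 3 (adjusted p = 0.080, edgeR), and that fit called no other gene of the list. RAE1, which was higher after 2,4-D, lies 336 bases from BAK1 on the opposite strand. MLP423 (HW_18307_g) was at 26.05, 36.6, 26.9 and 24.8 CPM in the 2,4-D libraries, against 58.6, 143, 143 and 81.2 CPM in the dicamba libraries (log2 fold change -1.91 ± 0.29, adjusted p = 0.014, edgeR). The kinase gene AT5G47070 averaged 29.8 CPM after 2,4-D and 68.55 CPM after dicamba.

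Another 4 act on lipids or jasmonate. AAE1 (HW_44141_g), an acyl-activating enzyme, was at 2.33, 3.63, 2.82 and 0.695 CPM in the 2,4-D libraries, against 35.9, 21.1, 10.8 and 22.9 CPM in the dicamba libraries. It was 9.585-fold lower after 2,4-D (log2 fold change -3.26 ± 0.50, adjusted p = 0.014, edgeR). LTP12 (HW_12141_g), a lipid transfer protein, was at 48.4, 39.9, 30.8 and 38.97 CPM in the 2,4-D libraries, against 151, 178, 72.05 and 137 CPM in the dicamba libraries. JMT (HW_24181_g), which methylates jasmonic acid, was at 40.6, 19.8, 32.3 and 38.9 CPM in the 2,4-D libraries, against 125, 97.3, 56.65 and 103 CPM in the dicamba libraries. In these genes dicamba replicate 3 was the lowest of its group, and the log2 fold changes were -1.79 ± 0.26 and -1.56 ± 0.27 for LTP12 and JMT (adjusted p = 0.012 and 0.028, edgeR). ACX1, which begins the peroxisomal shortening of fatty acids and of jasmonate precursors, averaged 28.9 CPM after 2,4-D and 75.5 CPM after dicamba (adjusted p = 0.023, edgeR). Over the 28 tested genes of a list of jasmonate synthesis and signalling edgeR called the 2 OPR1 genes higher and none lower, DESeq2 called 2 higher and 3 lower, and the median was -0.35. That list was drawn by words of the annotation and leaves out JMT and ACX1, both called lower. It does hold the OPR1 genes, although OPR1 is distinct from OPR3. Unadjusted p fell under 0.05 with a lower level after 2,4-D in 9 of the 28. In some of these the dicamba libraries spread widely, as in LOX2 (HW_41830_g), at 75.1 ± 15.1 CPM after 2,4-D and 358 ± 390 CPM after dicamba. In others they did not, as in LOX1, at 85.3 ± 2.95 CPM and 119 ± 15.6 CPM (SD, n = 4 each). Without dicamba replicates 2 and 3 edgeR called 2 of the 28 higher and 1 lower.

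The remaining 7 lower genes included AT1G77330 (HW_29455_g), annotated as an oxygenase and known in *A. thaliana* as an ACC oxidase, which makes ethylene, at 75.3, 62.2, 80.3 and 76.8 CPM in the 2,4-D libraries, against 176, 205, 162 and 198 CPM in the dicamba libraries. It was one of the 2 lower genes called in all 8 fits that left out a library, with EDS1 (log2 fold change -1.35 ± 0.15, adjusted p = 0.0018, edgeR). PP2-A1 (HW_51528_g), a phloem lectin, was at 0.2275, 0, 0.166 and 0 CPM in the 2,4-D libraries, against 1.62, 8.74, 2.96 and 6.86 CPM in the dicamba libraries. Its counts summed to 7 after 2,4-D and 436 after dicamba, and the log2 fold change was -5.68 ± 1.03 (adjusted p = 0.037, edgeR). Without dicamba replicates 2 and 3 its adjusted p was 0.051. AT4G00905 (HW_24213_g) was at 2.503, 1.25, 2.05 and 2.67 CPM in the 2,4-D libraries, against 7.15, 11.7, 7.76 and 10.65 CPM in the dicamba libraries (log2 fold change -2.16 ± 0.36, adjusted p = 0.022, edgeR). RD22 (HW_52334_g), a gene induced by drought and abscisic acid, was at 13.7, 16.98, 16.8 and 15.1 CPM in the 2,4-D libraries, against 29.7, 34.8, 25.9 and 29.8 CPM in the dicamba libraries (log2 fold change -0.96 ± 0.18, adjusted p = 0.042, edgeR). AT1G07050, AT5G47740 and AT1G24430 differed by -1.29, -1.14 and -1.12 on the log2 scale. Besides BAK1 and PP2-A1, AT5G47070, AT5G47740 and the higher ATGA2OX1 were the members lost without dicamba replicates 2 and 3.

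**Figure D3:**
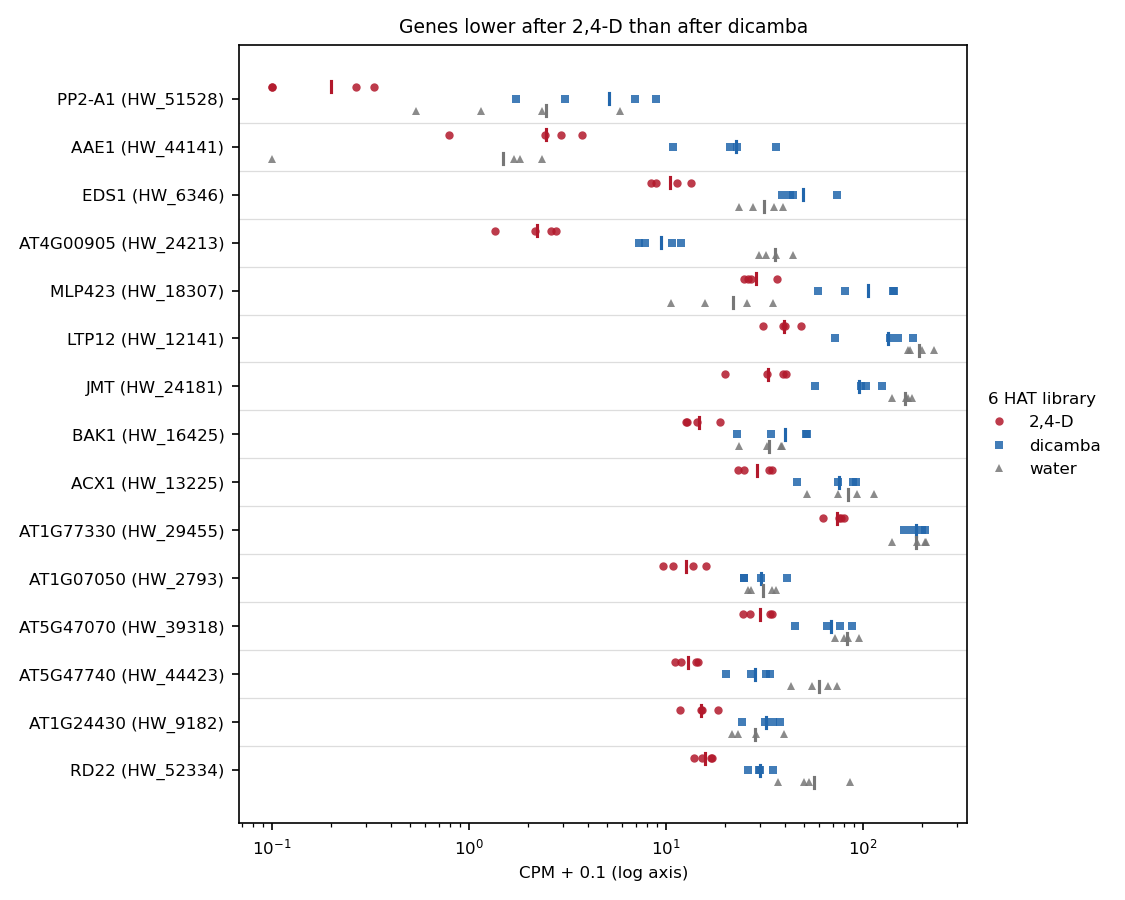
CPM + 0.1 in each library at 6 HAT (horizontal log axis) for the 15 genes lower after 2,4-D, with 2,4-D above dicamba and water in each row and a tick at the group mean. The 4 points of 2,4-D lie to the left of the 4 of dicamba in every row, and in 9 rows both herbicide means lie below the water mean.

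The genes through which auxin is perceived and answered showed no called difference. Of 14 tested AUX/IAA genes, 12 GH3 genes, 30 SAUR genes and 26 receptor and response factor genes, none passed the test of edgeR in either direction, and the medians were 0.06, 0.02, -0.12 and -0.08 on the log2 scale, beside -0.04 over all genes tested. At an unadjusted p under 0.05 there were 1, 1, 2 and 1 genes higher and 0, 1, 0 and 0 lower in these lists, and DESeq2 and the exact test each called 1 gene, a receptor or response factor that was higher. ATAUX2-11 (HW_4976_g), the most abundant AUX/IAA gene, averaged 1751 ± 145 CPM after 2,4-D and 1642 ± 534 CPM after dicamba (SD, n = 4 each), with a 95% interval of the log2 fold change from -0.45 to 0.59. IAA29 averaged 401 ± 63.0 CPM after 2,4-D and 410.1 ± 103 CPM after dicamba, with an interval from -0.51 to 0.40. Water leaves were at 163 and 18.3 CPM for these genes. For 11 of the 14 AUX/IAA genes the 95% interval lay within 2-fold in either direction, so that larger differences in them lie outside the intervals. The same held for only 5 of the 12 GH3 genes, 10 of the 30 SAUR genes and 15 of the 26 receptor and response factor genes. For the rest of each list the intervals do not exclude a difference above 2-fold. GH3.1 (HW_8261_g), the most abundant GH3 gene, averaged 4189 ± 583 CPM after 2,4-D and 2661 ± 1009 CPM after dicamba, against 0.837 CPM in water leaves, and did not pass the test (log2 fold change 0.64 ± 0.24 (SE), interval 0.12 to 1.16, adjusted p = 0.47, edgeR).

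Ethylene and abscisic acid are the hormones most often named in the response to auxin herbicides. None of 5 tested genes annotated in words as ethylene synthesis and none of 13 genes of abscisic acid synthesis and breakdown passed the test of edgeR. At an unadjusted p under 0.05 the first list held 1 lower gene and the second 2 higher and 1 lower, and DESeq2 and the exact test each called 1 gene of the second, which was lower. The ethylene list does not hold AT1G77330 (HW_29455_g), an ACC oxidase in *A. thaliana*, which was called lower after 2,4-D. The 5 tested genes were 3 matching EFE and those matching ACS10 and ACS12. They leave out ACS6, an ACC synthase gene, so the list cannot show whether ACS6 differed between the herbicides. ACS6 was not among the 75 called genes, and its values are not given here. The NCED genes, which encode the step that commits carotenoids to abscisic acid, gave intervals that did not narrow the difference much. NCED5 averaged 13.9 ± 5.57 CPM after 2,4-D and 7.10 ± 2.91 CPM after dicamba (interval of the log2 fold change 0.12 to 1.80, adjusted p = 0.51, edgeR), and NCED3 averaged 35.1 ± 14.8 CPM after 2,4-D and 26.7 ± 18.6 CPM after dicamba (interval -0.70 to 1.47, adjusted p = 0.92, edgeR). Of 25 genes of the response to abscisic acid, edgeR called RD22 alone, while DESeq2 called 1 higher and 1 lower.

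Of 28 tested genes of phenylpropanoid and flavonoid synthesis 4 were higher, the 3 ELI3-2 genes and CAD9, and none was lower, while the median was -0.39 and 10 genes had an unadjusted p under 0.05 with a lower level after 2,4-D. DESeq2 called 4 higher and 3 lower in that list. The 59 tested photosynthesis genes held no call by edgeR or DESeq2, had 2 higher and 6 lower at an unadjusted p under 0.05, and had a median of 0.12. The mesophyll markers, largely photosynthesis genes, are not all in this list. Of 14 tested markers, 4 were higher and none lower at an unadjusted p under 0.05, and DESeq2 called 1 higher. Their summed level was 67330 to 101700 CPM after 2,4-D and 36870 to 65640 CPM after dicamba, without overlap. No gene was called by edgeR among the lists for cell wall loosening (42 tested), senescence (7), sugar and starch (63) and the cell cycle (28), which together held 8 higher and 13 lower at an unadjusted p under 0.05. DESeq2 called 1 higher and 1 lower of them, both in the cell wall list. In all, 23 of the 75 genes belonged to one of the 26 lists and 52 to none.

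**Figure D4:**
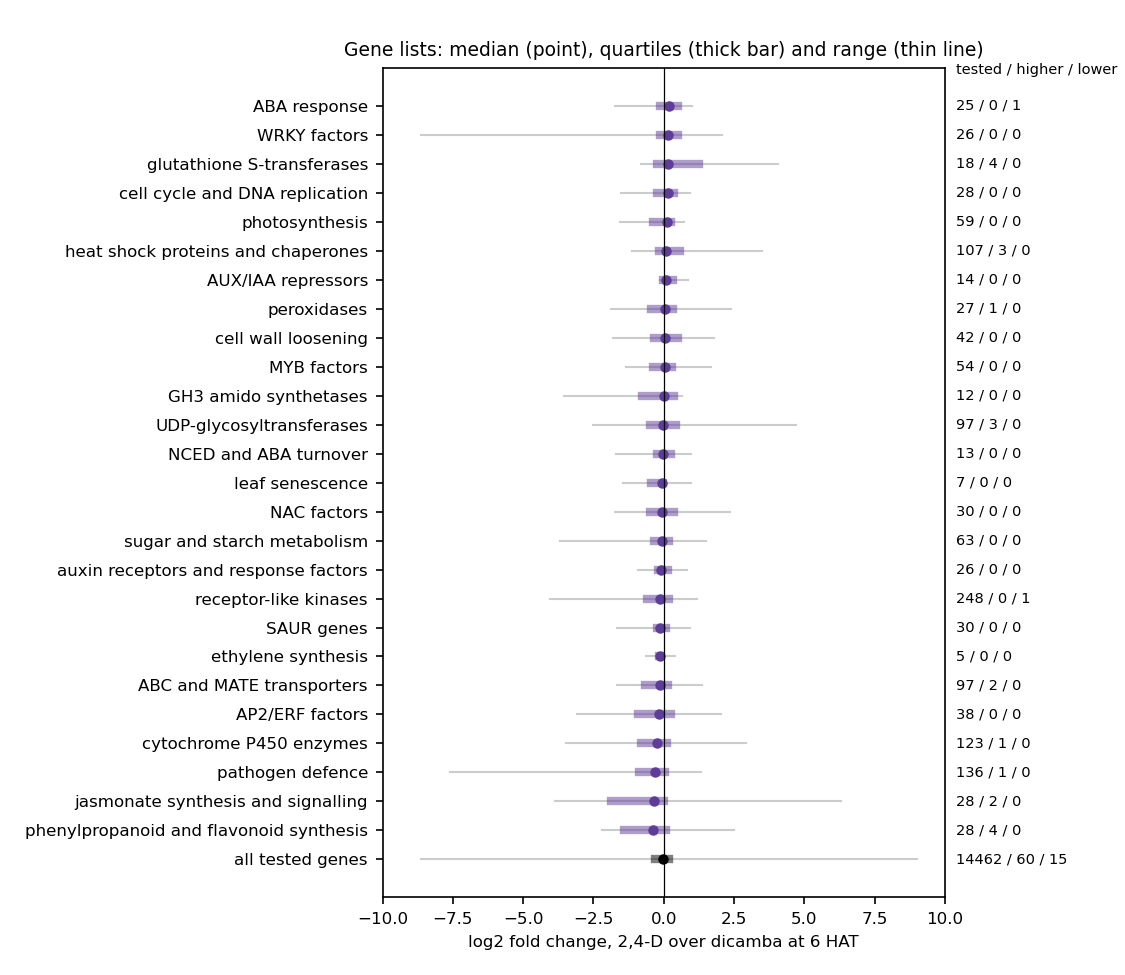
Log2 fold change of 2,4-D over dicamba at 6 HAT (horizontal axis) in each gene list, as the median, the quartiles and the range, with the number of genes tested, higher and lower at the right. The list medians lie between -0.39 and 0.19, while the glutathione S-transferases, with 4 of 18 called, reach 4.05.

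Set beside water leaves of the same hour, most of the higher genes stood above water after both herbicides and further above it after 2,4-D. These comparisons share the herbicide libraries with the one that chose the genes, so their values are given side by side only. The 2,4-D mean and the dicamba mean both lay above the water mean in 51 of the 60 higher genes. Against water, 56 of the 60 were called higher after 2,4-D (10.3% of all genes tested), and 28 of 57 tested were called higher after dicamba (5.64%). ELI3-2 (HW_1898_g), for instance, differed from water by 5.38 on the log2 scale after 2,4-D and by 2.87 after dicamba (adjusted p = 6.6e-06 and 0.00081, edgeR), and AT5G65380 by 6.10 and 4.93 (adjusted p = 3.5e-07 and 9.5e-06). OPR1 (HW_29036_g) differed by 8.88 after 2,4-D (adjusted p = 1.9e-06) and did not pass the test after dicamba (log2 fold change 2.62, adjusted p = 0.33, edgeR).

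In 8 of the higher genes the herbicide means fell on opposite sides of water. Tic32-IVa averaged 80.9 CPM after 2,4-D and 28.4 CPM after dicamba, with water at 60.2 CPM, and was called lower after dicamba (-1.08, adjusted p = 0.0062, edgeR). AT1G79660 was below water after both herbicides. Of the 57 higher genes tested against water after dicamba, 3 were called lower (3.96% of all genes tested), AT1G53540 (HW_47973_g) among them. This gene differed from water by -1.25 on the log2 scale after dicamba (adjusted p = 0.048, edgeR). After 2,4-D it differed by 0.81 without passing the test (adjusted p = 0.10, edgeR). Among the lower genes the order was mostly the reverse: 9 of 15 had both herbicide means below water. Against water, 12 of 14 tested were called lower after 2,4-D (9.41% of all genes tested) and 3 of 15 after dicamba (3.96%). AAE1 and MLP423 were the 2 called higher after dicamba against water (4.05 and 2.31 on the log2 scale, adjusted p = 0.008 and 0.0034, edgeR), while 2,4-D differed from water by 0.79 and 0.41 without passing the test (adjusted p = 0.7 and 0.48, edgeR).

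Halauxifen-methyl, the other auxin of the study, lay on the dicamba side for most of these genes. Every halauxifen-methyl library was below every 2,4-D library in 55 of the 60 higher genes (7.05% of all genes tested) and above every 2,4-D library in 11 of the 15 lower ones (8.30%). Set against dicamba, every halauxifen-methyl library was below every dicamba library in 23 of the 60 higher genes (2.79% of all genes tested) and above in 3 of them (4.11%), and its mean was below the dicamba mean in 45 of the 60. GSTU19 (HW_34208_g) averaged 0.308 CPM after halauxifen-methyl and AT5G65380 247 CPM. HSP101 went the other way, at 111 CPM after halauxifen-methyl beside 62.6 CPM after 2,4-D and 24.5 CPM after dicamba. These values share the libraries that chose the genes and are a description.

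At 1 HAT other plants had been sampled, so that the contrast of the herbicides could be set beside the one at 6 HAT in libraries that had no part in the choice. Of the 60 higher genes 59 could be tested at 1 HAT, and 49 of them were above 0, against 50.1% of all genes tested. At an unadjusted p under 0.05, 32 were higher after 2,4-D (8.57% of all genes) and 3 were lower, and 11 passed the adjusted test (0.208% of all genes). Every 2,4-D library lay above every dicamba library in 23 of the higher genes at 1 HAT (5.11% of all genes) and every one below in 4 of the lower genes (5.51%). The median log2 fold change of the 59 higher genes was 0.84, against 1.57 at 6 HAT. Of the 14 lower genes tested, 10 were below 0, 6 had an unadjusted p under 0.05 in that direction (7.56% of all genes), and none passed the adjusted test of edgeR. DESeq2 called 4 of the lower genes lower at 1 HAT, and of the higher genes 25 higher and 2 lower. The share of all genes that DESeq2 called at 1 HAT is not given here, so these counts have no background to be read against. Over all members edgeR called 4 to 14 at 1 HAT when single libraries were left out.

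LHT7 gave the smallest p of the members at 1 HAT, with 159, 256, 242 and 210.4 CPM in the 2,4-D libraries at 1 HAT, against 16.99, 11.1, 6.45 and 12.03 CPM in the dicamba libraries. The groups were further apart than at 6 HAT in CPM, at a log2 fold change of 4.23 (adjusted p = 0.00035, edgeR). AT2G28710 was at 57.01, 69.8, 55.99 and 54.3 CPM in the 2,4-D libraries at 1 HAT, against 3.14, 9.198, 4.33 and 5.75 CPM in the dicamba libraries, and so was present before 6 HAT in the 2,4-D leaves (log2 fold change 3.42, adjusted p = 0.0022, edgeR). OPR1 (HW_29036_g) was at 32.9, 66.65, 41.8 and 58.7 CPM in the 2,4-D libraries at 1 HAT, against 6.498, 1.88, 0.361 and 0.889 CPM in the dicamba libraries (log2 fold change 4.40, adjusted p = 0.046, edgeR). In all of these every 2,4-D library lay above every dicamba library. J20 (log2 fold change 2.27, adjusted p = 0.0047), AT1G59960 (1.95, 0.0062), AT4G24160 (1.95, 0.022) and IAGLU (HW_45375_g; 1.51, 0.019) were also called at 1 HAT by edgeR, as were ATB2 (HW_54440_g), GRXC1, HYR1 and GT72B1.

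For 6 of the 75 genes the difference between the herbicides itself differed between the times (interaction of herbicide and time, 0.0433% of all genes tested), each more positive at 6 HAT. This test uses the 6 HAT libraries that chose the genes, which favours a larger difference at 6 HAT, so the count is a description. GPX6 was at 379, 448, 369 and 462 CPM in the 2,4-D libraries at 1 HAT, against 300.1, 416, 341 and 434 CPM in the dicamba libraries, with overlap between the herbicides, without the separation seen at 6 HAT (difference of the log2 fold changes 2.25 ± 0.22 (SE), adjusted p = 0.00012, edgeR). GSTU25 was at 135, 97.7, 77.1 and 113 CPM in the 2,4-D libraries at 1 HAT, against 176, 179, 149 and 161 CPM in the dicamba libraries, with every 2,4-D library below every dicamba library, the reverse of the order at 6 HAT (difference 2.46 ± 0.34, adjusted p = 0.0093, edgeR). SCPL51, AT5G65380 and AT1G60690 also had negative values at 1 HAT (-1.48, -0.46 and -0.53 on the log2 scale), and ATB2 (HW_41920_g) had a smaller positive one (0.39). Their interactions were 2.90 ± 0.47, 1.65 ± 0.26, 1.56 ± 0.26 and 1.32 ± 0.22 (adjusted p = 0.03, 0.028, 0.03 and 0.032, edgeR). Leaving out single libraries gave 2 to 14 such genes among the members, and leaving out dicamba replicates 2 and 3 of 6 HAT gave 3.

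**Figure D5:**
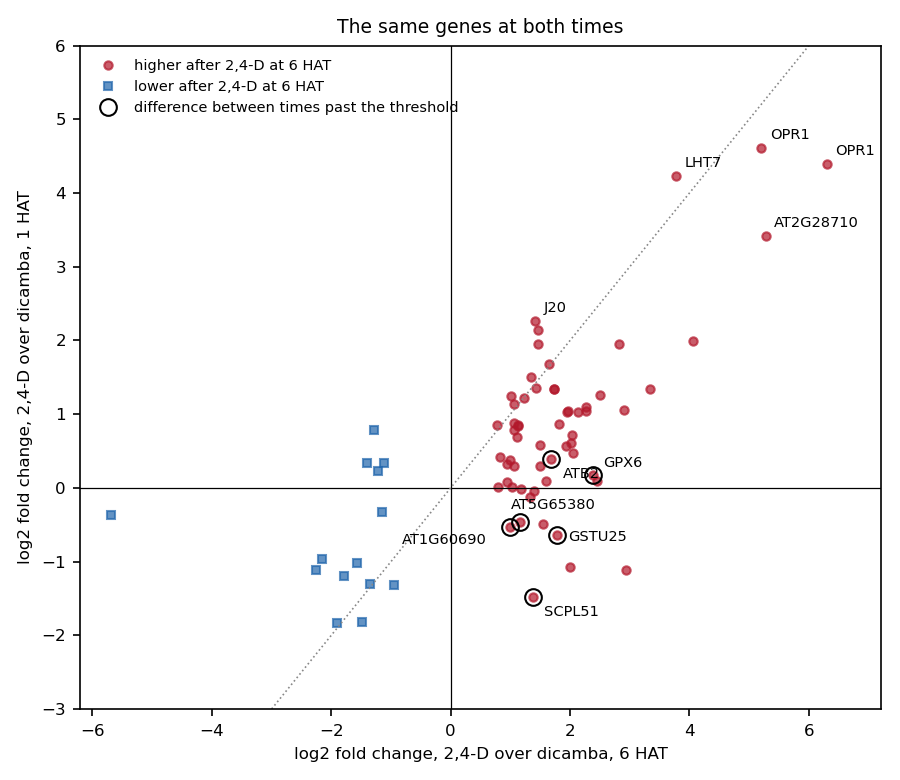
Log2 fold change of 2,4-D over dicamba at 6 HAT (horizontal axis) and at 1 HAT (vertical axis) for the 73 members tested at both times, with a dotted line of equal change and rings at the 6 genes with an interaction. OPR1, LHT7 and AT2G28710 lie far from 0 at both times, and 49 of 59 higher genes lie above the horizontal zero line.

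Around the threshold the calls shade into the uncalled genes without a step. Just inside it were AT1G24430 (adjusted p = 0.046), HW_5718_g (0.047) and AT5G05320 (0.049), and just outside AT3G06390 (0.053, log2 fold change 1.09), AATP1 (0.054, -2.10) and ATCSLA09 (0.059, -1.17), by edgeR.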

How the data were processed

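RNA of 32 leaves was sequenced as poly(A)-selected libraries. The authors checked reads with FastQC 0.11.2, aligned them with STAR 2.5.2b to a draft horseweed genome and counted them per gene with HTSeq 0.6.1, and deposited 1 table of raw counts. The processing notes also name DESeq2, edgeR and Cufflinks. The counting mode and strand setting are not given in the sources used here, so reads of overlapping or near-identical genes may have been split. Columns were matched to samples by their labels, with 0 left over. Gene names came from the authors' table of protein matches to *A. thaliana*; 73 of the 75 called genes had one.

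Genes were kept by filterByExpr (minimum count 10), scaled by TMM and tested with edgeR 4.0.16 in R 4.3.3 (quasi-likelihood F test, 8 libraries, no covariate, Benjamini-Hochberg threshold 0.05), with limma 3.58.1 installed beside it. The contrasts at 1 HAT, against water and of herbicide by time were fitted likewise. The procedure was tested on simulated data with 200 changed genes. DESeq2 1.42.0, edgeR's exact test, other filters and scaling, a fit of all 32 libraries, a replicate block and the omission of each library were the alternatives. Figures were drawn with matplotlib 3.10.9 and tables handled with pandas 2.3.3.

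Values in every library are given for the 12 genes with the smallest adjusted p, the 8 highest and 8 lowest log2 fold changes and the members of the gene lists, 37 genes in all. They are also given for AT1G59960, which is outside this rule. Most gene lists were matched by words of the annotation as spelled, so that genes described otherwise are not in them. The members and lists were chosen with earlier results of these data known, and the role groups were assigned after the values were seen. Replicate libraries came from separate plants. The counting interval of HW_46566_g (95%) covers counting error only. No sequence was printed, since none was used here.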

Additional observations from a re-analysis of the deposited data

Results flagged for a closer look

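Single libraries lay apart from the other 3 of their group in 11 of 150 groups (75 genes, 2 herbicides). Chance gives such a gap in about 1 group in 20, or 7.5 of 150, so the number is near that share. After 2,4-D these were AT1G59960 in replicate 1 (31.8 CPM, others 25.02 to 25.5), GPX6 in replicate 1 (833 CPM, others 906 to 916), ELI3-2 (HW_10085_g) in replicate 2 (36.9 CPM, others 41.3 to 41.9), IAGLU (HW_53177_g) in replicate 2 (77.8 CPM, others 60.01 to 61.5) and HYR1 in replicate 4 (31.0 CPM, others 37.0 to 37.3). After dicamba they were HW_46566_g in replicate 1 (0.0507 CPM, which is 1 count, others 0), AT1G53540 (HW_34278_g) in replicate 2 (3.60 CPM, others 1.60 to 1.84), and, in replicate 3, AT1G59960 (8.204 CPM, others 1.72 to 2.72), AT5G57790 (6.53 CPM, others 16.6 to 17.6), IAGLU (HW_45375_g; 41.7 CPM, others 48.3 to 49.3) and EDS1 (73.4 CPM, others 38.7 to 43.8). In each of them the 2,4-D and dicamba libraries still did not overlap.

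The contrast of 2,4-D and dicamba differed between 6 and 1 HAT by the interaction test in 6 genes. The 6 HAT libraries also chose these genes. The difference of the log2 fold changes, 6 minus 1 HAT, was 2.25 for GPX6, 2.46 for GSTU25, 1.32 for ATB2 (HW_41920_g), 2.90 for SCPL51, 1.65 for AT5G65380 and 1.56 for AT1G60690.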

How the results depend on the processing

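The 75 calls (60 higher, 15 lower after 2,4-D) numbered 262 (140 and 122) under DESeq2, 185 (104 and 81) under the exact test of edgeR, 164 (89 and 75) with no filter and 49 (29 and 20, of which 31 were among the 75) with all 32 libraries in 1 fit. DESeq2 size factors gave 74 and a minimum of 10 counts in every library 76. Leaving out 1 library gave 31 to 158 calls, 29 to 106 higher and 2 to 52 lower, of which 31 to 75 were among the 75. The low values came without any 2,4-D library (31 to 38) or dicamba replicate 4 (35), and the high one without dicamba replicate 3. Chosen after seeing the data, the omission of dicamba replicates 2 and 3 gave 153 (114 and 39), and genes called by at least 2 of 3 tests numbered 177 (103 and 74). The cause of these differences was not tested.

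Of the members, 11 called at 1 HAT became 31 with DESeq2, 24 with the exact test, 25 with no filter and 4 to 14 without 1 library. Shares over all genes tested are not given for these alternatives. The 6 interactions became 19, 14 with no filter, 3 without dicamba replicates 2 and 3, and 2 to 14 without 1 library; edgeR's exact test has no form for an interaction and was not run. Called members numbered 52 to 71 for 2,4-D against water (69; 67 to 72 without 1 library) and 28 to 43 for dicamba against water (36; 28 to 37).

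Replicate numbers are shared by the groups, and no label says that they pair the samples. Deviations of same-numbered libraries correlated at 0.28, -0.0049, 0.061 and 0.042, and 2 of 4 correlated best with their own number. These values are too few to settle whether the numbers mark a pairing. With the replicate block the calls were 67 (56 and 11, of which 61 were among the 75), 18 at 1 HAT, 4 interactions, 68 for 2,4-D and 32 for dicamba against water. No direction was reversed.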
